A study of Mus musculus with 16 samples.

Results

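Libraries of p53 wild-type mouse muscle stem cells were compared, 3 labelled p53WT_3dai (replicates 1 to 3) against 3 labelled p53WT with no suffix (replicates 1 to 3), which are 6 of the 16 libraries in 6 groups. All 6 libraries hold RNA of cells sorted from C57BL/6 mice aged from 2 to 3 months. The sort took cells with CD34 and alpha-7 integrin on their surface and left out cells bearing CD31, CD11b, CD45 or Sca-1. All 6 carry the genotype label p53 WT, and no other allele or treatment is named for them. Cells with no suffix were taken from the hind limb muscles, and those of 3dai from the tibialis anterior, a single muscle of the lower leg, so that the suffix and the muscle cannot be told apart. The labels do not spell out 3dai; in muscle work the abbreviation is commonly used for days after injury, and the labels name no injury agent and no uninjured control, so both groups are called here by their suffix. Whether replicates were separate animals is not stated in the labels, and a p below measures only the spread between these samples.

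Muscle stem cells, or satellite cells, lie under the basal lamina of the muscle fibre and are largely out of the cell cycle in resting muscle, where they are marked by the paired-box factor Pax7. After damage they enter the cycle, multiply as myoblasts and then either differentiate and fuse into fibres, under the myogenic factors Myod1 and Myog, or return to rest. Notch signalling, the surrounding matrix and surface receptors such as the calcitonin receptor are known to hold them at rest. Digestion and sorting are themselves known to induce early response genes in these cells.

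The values are FPKM, read fragments scaled to transcript length and to the library's mapped fragments, deposited by the authors for 24341 genes in each library. The 11923 genes with at least 1 FPKM in at least 2 of the 6 libraries were tested on log2(FPKM + 1). Each difference below is 3dai minus no suffix on that scale with its standard error, each adjusted p is from limma's moderated test with Benjamini-Hochberg adjustment over all 11923 genes, and "rose" or "fell" is used only where it was below 0.05. The scale understates changes of genes with low values.

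Between the groups 4108 genes rose and 2614 fell, which is 34.5% and 21.9% of the genes tested and 56.4% in both directions. At least 2-fold on the same scale, 3252 rose (27.3%) and 2177 fell (18.3%), and 167 rose and 159 fell at least 16-fold. Every count of list members below is to be read against 34.5% and 21.9%. The groups did not overlap for 38.4% of all genes tested with 3dai higher and for 25.1% with 3dai lower. Lack of overlap in a gene named below is to be read against these shares. The median difference of all genes tested was 0.29, and it became -0.03 when libraries were scaled by median of ratios, a shift of -0.32. Under that scaling 3020 genes rose (25.3%) and 3384 fell (28.4%), so that higher genes made up 47.2% of the calls in place of 61.1%, and no gene called under both scalings changed its sign. Differences of the size of that shift depend on the scaling, and the lists are given with both medians where the sign or the reading changes.

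**Figure D1:**
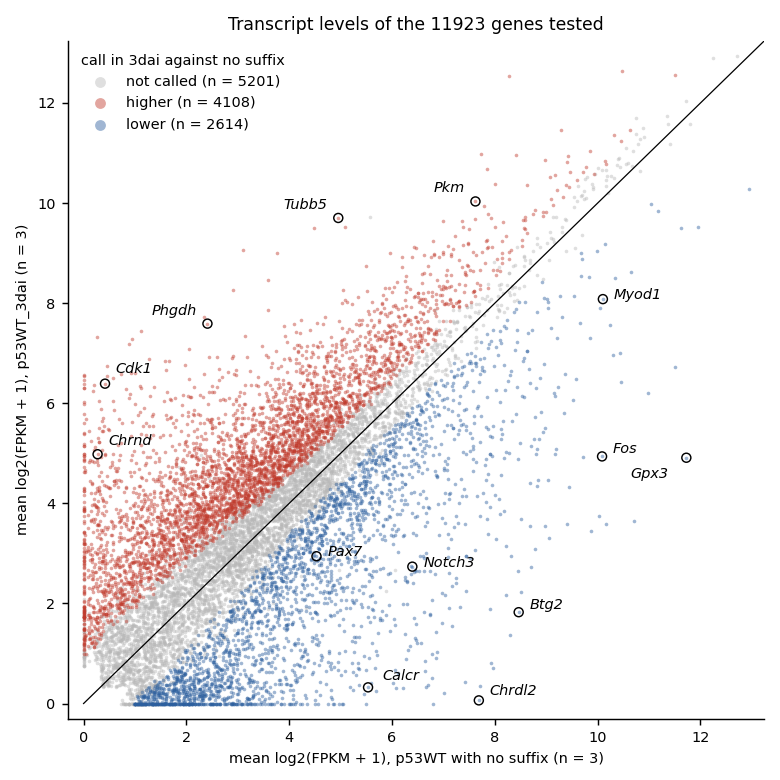
Mean log2(FPKM + 1) of the 11923 genes tested in the 3 p53WT libraries with no suffix (horizontal axis) and in the 3 p53WT_3dai libraries (vertical axis), 1 dot per gene, red for the 4108 genes called higher and blue for the 2614 called lower in 3dai. The line marks equal levels; Chrdl2 and Calcr lie along the bottom edge and Cdk1 and Chrnd at the left edge, near 0 in one group.

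The libraries of a group resembled each other more than those of the other group: Pearson correlations across genes on the log2 scale were 0.933 to 0.959 within groups and 0.648 to 0.685 between them. Sums of FPKM ran from 423303 to 616485, and 10341 to 10800 genes reached 1 FPKM in a library, while sequencing depth is unknown from the files. Exact zeros are not taken as proof of absence here. A 0 in some library is listed for 69 genes whose median over all 6 libraries exceeds 20 FPKM. That count takes in genes at 0 throughout one group and high in the other, such as Gmnn. It does not show how many zeros are false. Where a gene is at 0 in all 3 libraries of a group, its library values and adjusted p are given without a difference. Within the no suffix group, replicate 1 had the highest early response genes and Pax7, and replicate 2 the highest smooth muscle genes. In 3dai, replicate 2 had the lowest Myog and several fusion and fetal contractile genes below the other replicates.

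The genes of the sort could be checked in these libraries. Itga7, which codes alpha-7 integrin, was 87.3, 92.3 and 90.5 FPKM with no suffix and 201, 183 and 205 in 3dai and rose (log2 difference 1.11 ± 0.15, adjusted p = 2.21e-04). Cd34 was 90.0, 59.2 and 68.5 FPKM with no suffix and 53.4, 61.6 and 42.7 in 3dai, the groups overlapped, and it did not pass (log2 difference -0.45 ± 0.21, adjusted p = 0.0957), although under median-of-ratios scaling it did, at -0.84. For the markers sorted against, Pecam1 (CD31) reached at most 2.09 FPKM, Itgam (CD11b) at most 0.12, Ptprc (CD45) is listed at 0 in all 6 libraries, and Ly6a (Sca-1) reached at most 5.88 without passing (log2 difference 1.45 ± 0.60, adjusted p = 0.0642). Levels of different genes are set side by side only because FPKM is per length.

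Markers of other cells were nonetheless present, far more in one group than in the other. Summed over the list, fibro-adipogenic progenitor markers came to 1183 to 1373 FPKM with no suffix and 64.1 to 85.2 in 3dai, and 9 of 10 tested members fell. Schwann cell markers came to 610.3 to 664 against 50.2 to 74.4 FPKM with 7 of 8 lower, tenocyte markers to 931 to 2001 against 83.3 to 116 with 8 of 10 lower, and pericyte and smooth muscle markers to 892 to 1553 against 270.0 to 347 with 10 of 10 lower. Endothelial markers came to 26.2 to 40.3 against 0.386 to 2.79 FPKM, with 3 of 5 tested lower and 3 more below the filter. Macrophage markers came to 8.78 to 27.4 against 2.92 to 5.70 FPKM. Of these 10 markers 7 were below the filter, and 2 of the 3 tested fell, Lyz2 and Cd14. The fall of Cd14 was not called without p53WT replicate 1 (adjusted p = 0.0517 by limma). Red blood cell markers came to 35.0 to 69.7 FPKM against 0, with 2 of 2 tested lower. Lymphocyte and neutrophil markers are listed at 0 throughout. Single genes carried much of some sums. Egr1, which is an immediate early gene as well as a tendon factor, held 64.7% to 87.5% of the tenocyte sum with no suffix, and without it that sum was 251 to 468 against 70.2 to 108 FPKM. Without Des, the desmin gene, which muscle cells also express, the pericyte and smooth muscle sum was 384 to 996 against 26.9 to 46.1 FPKM. Without Tek, which is also counted among the quiescence genes, the endothelial sum was 13.8 to 26.8 against 0.244 to 2.55 FPKM. These genes were singled out after their values were seen. Markers of the muscle stem cells themselves were lower as well, at 740 to 1093 against 463 to 492 FPKM, with 5 of 8 lower and 1 higher. Calcr, Chodl, Pax7 and Cd34 of this list are also counted among the quiescence genes described below. Chodl alone was 334, 166 and 271 FPKM with no suffix and 0.960, 1.24 and 0 in 3dai. The defining marker of fibro-adipogenic progenitors, Pdgfra, was too low to be tested, and Ly6a, Tnc, Scx and Ngfr within these lists did not fall. In bulk samples fewer cells of a type and less RNA per cell cannot be told apart. The part of these cells in the falls described below was not tested.

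**Figure D2:**
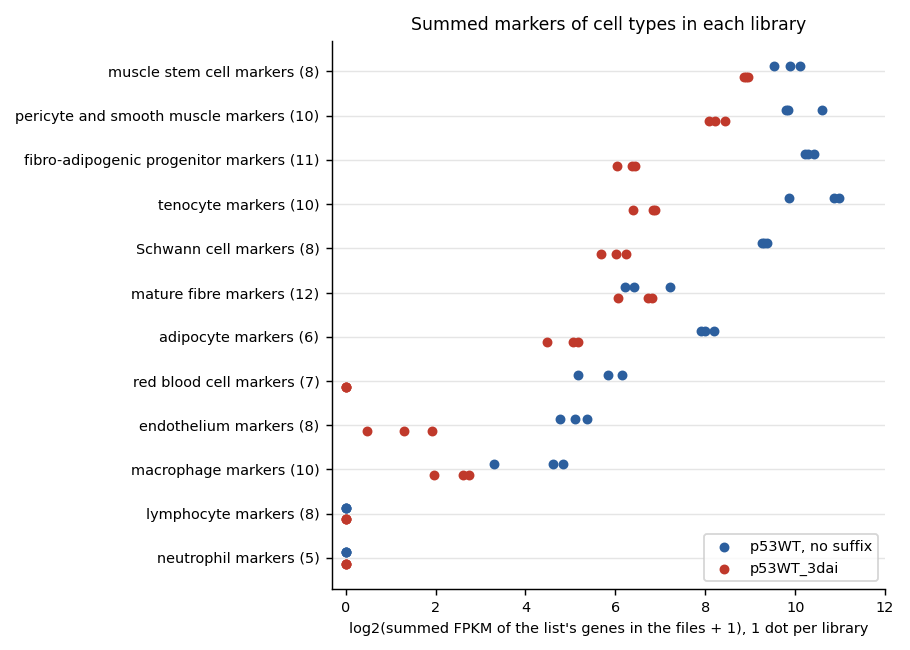
Summed FPKM of the genes of each cell type list, as log2(sum + 1), with 1 dot per library (blue, the 3 p53WT libraries with no suffix; red, the 3 p53WT_3dai libraries) and the number of the list's genes found in the files in brackets. The groups do not overlap for muscle stem cell, progenitor, tenocyte, Schwann, pericyte, endothelial, macrophage, adipocyte and red blood cell markers, all higher with no suffix (76.4% to 95.5% of the adipocyte sum with no suffix is Lpl), and they overlap for mature fibre markers (72.7 to 148 against 65.9 to 112 FPKM).

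Genes that mark quiescent muscle stem cells were lower in 3dai. Of 30 tested list members 21 fell and 0 rose, with a median difference of -2.17. The calcitonin receptor gene Calcr, whose product keeps the cells at rest, was 54.5, 30.6 and 55.6 FPKM with no suffix and 0.0707, 0.829 and 0 in 3dai (log2 difference -5.21 ± 0.36, adjusted p = 6.08e-06). Spry1, an inhibitor of receptor tyrosine kinase signalling needed for the return to rest, was 123, 46.7 and 72.7 FPKM with no suffix and 3.81, 3.41 and 7.02 in 3dai (log2 difference -3.77 ± 0.37, adjusted p = 4.10e-05). Both were lower in every 3dai library than in any library with no suffix. Chrdl2 and Chodl were among the 10 largest falls of all genes. Chrdl2, coding a secreted BMP binding protein, was 204, 171 and 249 FPKM with no suffix and 0, 0 and 0.140 in 3dai (log2 difference -7.62 ± 0.23, adjusted p = 2.64e-07). Chodl, coding the membrane lectin chondrolectin, was 334, 166 and 271 FPKM with no suffix and 0.960, 1.24 and 0 in 3dai (log2 difference -7.24 ± 0.36, adjusted p = 1.54e-06). Tek, the angiopoietin receptor gene, was 18.0, 13.5 and 12.4 FPKM with no suffix and 0.142, 0.235 and 0.615 in 3dai (log2 difference -3.55 ± 0.31, adjusted p = 2.37e-05); it is also an endothelial marker.

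Pax7 changed far less than these. It was 43.1, 9.33 and 26.1 FPKM with no suffix and 8.18, 6.67 and 5.45 in 3dai (log2 difference -1.59 ± 0.47, adjusted p = 0.0171); the groups did not overlap, but the values with no suffix were spread widely. The fall was no longer called without p53WT replicate 1 (adjusted p = 0.0673), without p53WT replicate 3 (0.0666) or without p53WT_3dai replicate 3 (0.0578). Cdkn1c, coding the cell cycle inhibitor p57, was 23.4, 39.6 and 20.6 FPKM with no suffix and 30.5, 8.66 and 37.0 in 3dai with overlapping groups (log2 difference -0.30 ± 0.48, adjusted p = 0.624). Cdkn1b, coding p27, was 40.8, 26.4 and 34.1 FPKM with no suffix and 33.9, 31.1 and 34.3 in 3dai (log2 difference -0.01 ± 0.20, adjusted p = 0.978). These and 7 others of the list, among them Cd34, Pax3 and Foxo3, did not pass in either direction.

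In the Notch pathway the receptor genes and effector genes that passed were mostly lower, and the ligand genes moved both ways. Of 22 members tested 5 rose and 9 fell, with a median of -0.54. The receptor gene Notch1 was 19.9, 22.1 and 30.8 FPKM with no suffix and 9.21, 9.68 and 5.64 in 3dai (log2 difference -1.47 ± 0.27, adjusted p = 0.00163). Notch3 was 95.3, 69.0 and 87.4 FPKM with no suffix and 5.66, 6.96 and 4.57 in 3dai (log2 difference -3.66 ± 0.22, adjusted p = 3.23e-06). The effector Hes1 was 55.1, 31.4 and 40.2 FPKM with no suffix and 15.1, 8.14 and 20.1 in 3dai (log2 difference -1.53 ± 0.33, adjusted p = 0.00361), Hey1 was 44.2, 45.2 and 46.4 FPKM with no suffix and 4.25, 4.30 and 0.326 in 3dai (log2 difference -3.79 ± 0.49, adjusted p = 2.03e-04) and Heyl was 43.6, 20.3 and 30.6 FPKM with no suffix and 0.472, 0.536 and 0.782 in 3dai (log2 difference -4.29 ± 0.33, adjusted p = 1.08e-05). No library with no suffix overlapped a 3dai library for any of these 5 genes. The ligand gene Jag2 rose from 0.310, 0.205 and 0.490 to 11.7, 7.37 and 9.68 FPKM (log2 difference 2.97 ± 0.32, adjusted p = 6.79e-05), whereas Jag1, named after its value was seen, fell (log2 difference -2.36 ± 0.26). Hes6, a family member known to work against Hes1 and to favour differentiation, rose from 2.58, 4.76 and 0.643 to 54.6, 40.2 and 63.4 FPKM (log2 difference 4.03 ± 0.43, adjusted p = 6.55e-05). Notch3 also counts among the pericyte markers, whose sum fell in the same libraries as stated above.

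**Figure D3:**
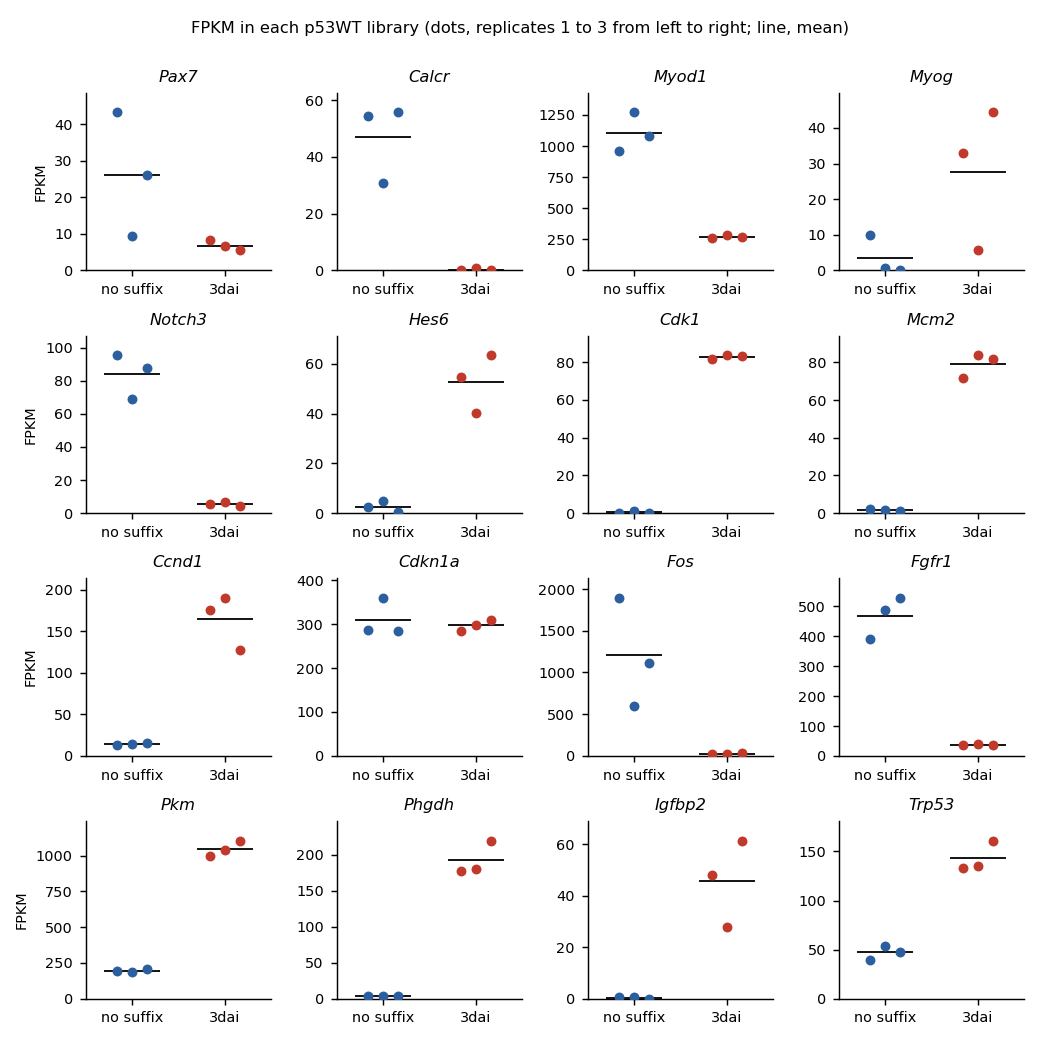
FPKM of 16 genes in each p53WT library, blue with no suffix and red in 3dai, with dots for replicates 1 to 3 from left to right, a line at the mean and linear axes from 0. Calcr, Notch3, Fos and Fgfr1 are low in every 3dai library and Cdk1, Mcm2, Ccnd1, Pkm, Phgdh and Trp53 high, while Cdkn1a overlaps and Myog is low in 3dai replicate 2.

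Genes that copy DNA and divide the cell were higher in 3dai almost without exception. All 50 DNA replication genes rose, with a median difference of 3.45, and 61 of 62 mitosis genes rose, with a median of 4.60. Among 30 DNA repair genes 28 rose (median 2.52), and 0 fell in any of these 3 lists. The single mitosis gene that did not pass was Pttg1, securin (difference -0.53, chosen for mention after its value was seen), which was called lower under median-of-ratios scaling. Markers of fibro-adipogenic progenitors, Schwann cells, pericytes and endothelium were lower in the same 3dai libraries. Which cells carried these rises was not tested.

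Among the replication genes, Mcm2, a subunit of the helicase that opens DNA at origins, was 2.25, 1.65 and 0.972 FPKM with no suffix and 71.7, 83.7 and 81.7 in 3dai (log2 difference 4.96 ± 0.25, adjusted p = 1.54e-06). Mcm5, of the same helicase, was 1.46, 2.28 and 2.46 FPKM with no suffix and 100.5, 108 and 95.3 in 3dai (log2 difference 5.07 ± 0.21, adjusted p = 6.93e-07). Rrm2, the subunit of ribonucleotide reductase that limits the supply of deoxynucleotides, was 17.3, 5.72 and 13.1 FPKM with no suffix and 370, 366 and 327 in 3dai (log2 difference 4.88 ± 0.33, adjusted p = 5.36e-06). Every 3dai library was above every library with no suffix for these 3 genes. Gmnn, whose product geminin blocks a new round of replication and is present from S phase to mitosis, is listed at 0, 0 and 0 FPKM with no suffix and 81.0, 85.3 and 120.4 in 3dai (adjusted p = 5.70e-07). Tk1, thymidine kinase, was 0, 0.541 and 0 FPKM with no suffix and 84.7, 73.9 and 85.2 in 3dai (log2 difference 6.15 ± 0.27, adjusted p = 7.84e-07). Uhrf1, which brings the maintenance DNA methylase to copied DNA, was 0.631, 0 and 0.590 FPKM with no suffix and 90.0, 99.3 and 88.1 in 3dai (log2 difference 6.09 ± 0.27, adjusted p = 7.84e-07).

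Among the mitosis genes, Cdk1, the kinase that drives entry into mitosis, was 0.186, 1.01 and 0 FPKM with no suffix and 81.9, 83.7 and 83.2 in 3dai (log2 difference 5.97 ± 0.30, adjusted p = 1.54e-06). Its partner cyclin gene Ccnb1 is listed at 0, 0 and 0 FPKM with no suffix and 67.0, 66.7 and 60.0 in 3dai (adjusted p = 6.08e-07). Plk1, a mitotic kinase, is listed at 0, 0 and 0 FPKM with no suffix and 54.0, 56.6 and 52.5 in 3dai (adjusted p = 7.20e-07). The 3 libraries of 3dai lay within a few FPKM of each other for Cdk1 and Plk1. Cdc20, the activator of the anaphase-promoting complex, was 0, 3.85 and 0.377 FPKM with no suffix and 87.0, 102 and 100.2 in 3dai (log2 difference 5.69 ± 0.51, adjusted p = 2.52e-05). Ube2c, the ubiquitin-conjugating enzyme of that complex, was 0, 3.73 and 1.14 FPKM with no suffix and 134, 194 and 196 in 3dai (log2 difference 6.32 ± 0.48, adjusted p = 1.05e-05). Birc5, survivin, of the chromosomal passenger complex, had the largest rise of all genes named by size, at 0.0536, 0 and 0.612 FPKM with no suffix and 178, 128 and 174 in 3dai (log2 difference 7.06 ± 0.27, adjusted p = 5.70e-07). Spc24, of the kinetochore, was 0, 0 and 0.462 FPKM with no suffix and 56.5, 81.0 and 93.0 in 3dai (log2 difference 6.07 ± 0.30, adjusted p = 1.41e-06). Mki67, coding the proliferation antigen Ki-67, was 0.493, 2.10 and 0.369 FPKM with no suffix and 74.0, 75.3 and 55.4 in 3dai (log2 difference 5.21 ± 0.34, adjusted p = 5.01e-06).

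Many promoters of mitotic genes are known to carry a CCAAT box and, close to the start site, the element TTTGAA called CHR, through which the DREAM complex holds them silent outside the late cell cycle. Both were looked for as exact letters on both strands in RefSeq promoters (build GRCm38.p6, the mm10 assembly; 250 bases before to 50 after the start), which matched 8759 of the 11923 genes tested. The letters TTTGAA stood in 11.6% of all 8759 promoters, in 33 of 48 mitosis promoters (68.8%) and in 4 of 37 DNA replication promoters (10.8%). The letters CCAAT stood in 39.3% of all promoters, in 75% of the mitosis promoters and in 67.6% of the replication promoters. Both stood in 4.9% of all, in 29 of 48 mitosis promoters (60.4%) and in 10.8% of replication promoters. Over all genes by call, TTTGAA stood in 14% of the promoters of genes that rose, 9.37% of those that fell and 10.6% of those not called. The elements CRE (TGACGTCA) and CArG box were searched as well. They stood in 3.57% and 1.38% of all promoters, 8.33% and 4.17% of mitosis promoters and 2.7% each of replication promoters. Of 24 immediate early promoters 2 held each (8.33%), and of 36 oxidative phosphorylation promoters 3 held CRE (8.33%) and 0 the CArG box. TTTGAA stood in 12.5% and 2.78% of these 2 lists. A match is a description of letters and shows no binding. The 110 bases before the start of 4 genes with large rises are printed 5′ to 3′ on the gene's strand to show where the letters stand; capitals mark TTTGAA and CCAAT, or TTCAAA and ATTGG where the match is on the other strand, and the 2 elements do not overlap.
Cdc20: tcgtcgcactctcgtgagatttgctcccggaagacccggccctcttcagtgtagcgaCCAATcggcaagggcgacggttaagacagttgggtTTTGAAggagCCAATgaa
Cdk1: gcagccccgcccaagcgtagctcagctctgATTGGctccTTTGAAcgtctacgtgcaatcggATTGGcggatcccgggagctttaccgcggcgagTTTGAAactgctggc
Ube2c: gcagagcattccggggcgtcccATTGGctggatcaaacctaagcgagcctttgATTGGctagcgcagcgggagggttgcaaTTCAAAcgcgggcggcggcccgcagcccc
Top2a: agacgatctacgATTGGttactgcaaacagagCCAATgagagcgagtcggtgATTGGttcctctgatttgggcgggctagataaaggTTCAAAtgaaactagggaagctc
These stretches lie at chr4:118437344-118437453 (minus strand), chr10:69352913-69353022 (minus strand), chr2:164769819-164769928 (plus strand) and chr11:99024190-99024299 (minus strand). The CHR letters stand 18 to 13 bases before the start in Cdc20, 29 to 24 in Ube2c and 23 to 18 in Top2a, which codes DNA topoisomerase II alpha. Cdk1 holds them at 71 to 66 and again at 15 to 10 bases before the start.

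The regulators of the G1 and S phases moved in both directions, mostly up. Of 29 members 21 rose and 3 fell, with a median of 2.76. The cyclin gene Ccnd1, which responds to mitogens, was 12.9, 14.2 and 15.2 FPKM with no suffix and 176, 190.1 and 127 in 3dai (log2 difference 3.44 ± 0.20, adjusted p = 2.49e-06), whereas its relative Ccnd2 was 4.22, 16.2 and 6.68 FPKM with no suffix and 1.34, 0.954 and 1.12 in 3dai and fell (log2 difference -2.05 ± 0.44, adjusted p = 0.00366). Ccne2, a cyclin of S phase entry, was 0.511, 0.854 and 1.84 FPKM with no suffix and 64.5, 57.8 and 64.2 in 3dai (log2 difference 4.98 ± 0.28, adjusted p = 2.45e-06). Cks1b, an adaptor of the cyclin-dependent kinases, was 11.6, 5.61 and 4.12 FPKM with no suffix and 306, 222 and 420.2 in 3dai (log2 difference 5.35 ± 0.35, adjusted p = 4.68e-06). The D cyclins thus parted, with no overlap between groups for either. Of the pocket proteins that restrain E2F factors, Rbl1 (p107) was 0.722, 0.986 and 0.973 FPKM with no suffix and 19.9, 30.9 and 18.1 in 3dai and rose (log2 difference 3.63 ± 0.30, adjusted p = 1.59e-05). Rbl2 (p130), which is typical of resting cells, was 8.64, 6.16 and 5.61 FPKM with no suffix and 3.80, 2.83 and 5.00 in 3dai and did not pass (log2 difference -0.68 ± 0.31, adjusted p = 0.0869), though it was called lower under median-of-ratios scaling. Myc, which is both a growth regulator and an early response gene, was 351, 365 and 414 FPKM with no suffix and 73.1, 74.7 and 58.7 in 3dai and fell (log2 difference -2.44 ± 0.17, adjusted p = 5.88e-06).

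The inhibitors of cyclin-dependent kinases did not fall together with this. Of 8 members 4 rose and 0 fell, with a median of 0.85. Cdkn2a, which codes p16 and p19ARF, was 1.40, 1.15 and 0 FPKM with no suffix and 7.27, 9.93 and 25.9 in 3dai (log2 difference 2.96 ± 0.51, adjusted p = 0.00110). Cdkn2c, which codes p18, was 11.8, 13.0 and 8.83 FPKM with no suffix and 29.8, 21.6 and 32.5 in 3dai (log2 difference 1.25 ± 0.24, adjusted p = 0.00197). Cdkn3, a phosphatase gene of late cycle cells despite its name, is listed at 0, 0 and 0 FPKM with no suffix and 9.05, 16.6 and 9.37 in 3dai (adjusted p = 3.40e-05). Cdkn1a, which codes p21 and is a target of p53, was 286, 359 and 283 FPKM with no suffix and 284, 298 and 310 in 3dai with overlapping groups (log2 difference -0.05 ± 0.17, adjusted p = 0.822); under median-of-ratios scaling it was called lower, at -0.44.

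Of 6 histone cluster genes that could be tested, whose products are made for DNA replication, 2 rose and 0 fell, and 7 of 17 in the files are listed at 0 in every 3dai library. The variant genes H2afz and H2afx, which the list also holds, both rose. Hist1h4i was 6.17, 0 and 0 FPKM with no suffix and 49.4, 22.8 and 24.6 in 3dai (log2 difference 4.02 ± 0.71, adjusted p = 0.00127). H2afz, which is transcribed outside S phase as well, was 91.9, 120.1 and 61.4 FPKM with no suffix and 554, 491 and 597 in 3dai (log2 difference 2.62 ± 0.24, adjusted p = 2.92e-05). Transcripts of replication histones lack the usual tail, and the files do not say how the libraries treated it.

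The myogenic regulators were split. Of 26 members 9 rose and 8 fell, and the median was 0.34, or -0.03 under median-of-ratios scaling, so the list as a whole had no direction that held under both. Myod1, the factor that commits cells to muscle, was 961, 1270 and 1083 FPKM with no suffix and 261, 282 and 266 in 3dai and fell (log2 difference -2.02 ± 0.18, adjusted p = 2.15e-05). Myf5, its relative that marks committed progenitors, was 205, 129 and 142 FPKM with no suffix and 48.6, 68.4 and 46.1 in 3dai and fell (log2 difference -1.52 ± 0.23, adjusted p = 4.94e-04). Neither gene overlapped between groups. Msc, coding musculin, a repressor of myogenic factors, was 334, 333 and 286 FPKM with no suffix and 6.49, 6.13 and 7.61 in 3dai (log2 difference -5.36 ± 0.17, adjusted p = 2.94e-07). Meox2 was 9.82, 9.41 and 7.31 FPKM with no suffix and 0, 0.394 and 0 in 3dai (log2 difference -3.13 ± 0.32, adjusted p = 5.56e-05). In the other direction Six4, a homeobox factor acting with Eya proteins on muscle genes, was 1.83, 0.743 and 2.07 FPKM with no suffix and 17.9, 20.4 and 9.27 in 3dai (log2 difference 2.70 ± 0.38, adjusted p = 3.31e-04). Mef2c, which works with the myogenic factors late in differentiation, was 1.19, 4.24 and 1.68 FPKM with no suffix and 1.95, 0.425 and 1.70 in 3dai and did not pass (log2 difference -0.48 ± 0.45, adjusted p = 0.388).

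Myog, the factor of terminal differentiation, was 10.0, 0.583 and 0.181 FPKM with no suffix and 33.0, 5.78 and 44.4 in 3dai (log2 difference 3.00 ± 0.91, adjusted p = 0.0198). Its groups overlapped, since p53WT replicate 1 exceeded p53WT_3dai replicate 2. The rise was not called without p53WT replicate 2 (adjusted p = 0.0795), without p53WT replicate 3 (0.0848), without p53WT_3dai replicate 1 (0.0682) or without p53WT_3dai replicate 3 (0.0812), nor with no filter on low values (0.0639). Tmem8c, which codes the fusion protein myomaker, was 0.449, 0 and 0 FPKM with no suffix and 15.3, 2.00 and 24.1 in 3dai (log2 difference 3.24 ± 0.70, adjusted p = 0.00361), again lowest of the 3dai libraries in replicate 2. Gm7325, which codes the fusion peptide myomixer, was 3.33, 0 and 0 FPKM with no suffix and 7.76, 2.38 and 3.04 in 3dai and did not pass (log2 difference 1.60 ± 0.62, adjusted p = 0.0531).

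Over the fusion and adhesion list 4 of 21 members rose and 5 fell, with a median of -0.19. Under median-of-ratios scaling 3 rose and 9 fell, with a median of -0.47, where 25.3% of all genes rose and 28.4% fell. The share of falls in this list thus depended on the scaling. Myof, coding myoferlin, a membrane protein of fusing myoblasts, was 1.79, 2.58 and 2.44 FPKM with no suffix and 74.2, 76.5 and 50.7 in 3dai (log2 difference 4.37 ± 0.24, adjusted p = 2.38e-06). Cdh2, coding N-cadherin, was 3.27, 1.91 and 3.06 FPKM with no suffix and 45.8, 44.1 and 37.9 in 3dai (log2 difference 3.56 ± 0.24, adjusted p = 6.09e-06). Dmd, which codes dystrophin, was 20.5, 12.5 and 18.1 FPKM with no suffix and 0.714, 0.781 and 0.722 in 3dai and fell (log2 difference -3.35 ± 0.30, adjusted p = 2.52e-05). Mcam, also counted among the pericyte markers, was 19.6, 38.8 and 21.9 FPKM with no suffix and 1.42, 4.32 and 4.11 in 3dai (log2 difference -2.72 ± 0.39, adjusted p = 3.49e-04).

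Contractile genes as a list did not move one way. Of 27 members tested 6 rose and 8 fell, with a median of 0.26 (-0.10 under median-of-ratios scaling); without p53WT_3dai replicate 2 the count of falls was 5. Myh3, embryonic myosin heavy chain, was 0.0498, 0.409 and 0.0743 FPKM with no suffix and 9.16, 2.55 and 8.08 in 3dai (log2 difference 2.56 ± 0.45, adjusted p = 0.00114). Tnnt2, cardiac troponin T, which embryonic skeletal muscle also uses, was 0, 0 and 0.0365 FPKM with no suffix and 16.6, 12.0 and 28.9 in 3dai (log2 difference 4.23 ± 0.36, adjusted p = 2.06e-05). Actc1, cardiac actin, was 1.84, 1.66 and 0 FPKM with no suffix and 11.9, 3.67 and 14.1 in 3dai (log2 difference 2.31 ± 0.56, adjusted p = 0.00654). Myl4, the embryonic light chain gene, was 2.00, 7.40 and 4.91 FPKM with no suffix and 7.19, 4.45 and 15.8 in 3dai with overlapping groups and did not pass (log2 difference 0.78 ± 0.50, adjusted p = 0.209). Acta1, the adult skeletal actin gene, was 25.8, 18.5 and 4.35 FPKM with no suffix and 25.4, 14.5 and 24.3 in 3dai with overlapping groups (log2 difference 0.63 ± 0.53, adjusted p = 0.339). Acta2, smooth muscle actin, was 152, 576 and 169 FPKM with no suffix and 17.8, 12.2 and 33.8 in 3dai (log2 difference -3.59 ± 0.51, adjusted p = 3.70e-04), with p53WT replicate 2 standing high. Myom1, coding a protein of the sarcomere's M band, was 4.95, 9.67 and 4.75 FPKM with no suffix and 0.00753, 0.0344 and 0 in 3dai and also fell (log2 difference -2.82 ± 0.35, adjusted p = 1.78e-04). Myh8, the perinatal myosin gene, stayed under 0.3 FPKM in every library.

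Transcripts of mature fibres were low in both groups. Ckm, muscle creatine kinase, was 16.3, 5.93 and 5.68 FPKM with no suffix and 3.21, 0 and 1.47 in 3dai (log2 difference -2.09 ± 0.57, adjusted p = 0.0124). Mb, myoglobin, is listed at 19.2, 1.03 and 1.56 FPKM with no suffix and 0, 0 and 0 in 3dai (adjusted p = 0.0319). Neither call was stable to leaving out a library: Ckm was not called without p53WT replicate 1 (adjusted p = 0.0562), and Mb was not called when any 1 of the 3dai replicates was left out (0.0721 to 0.0787).

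Most genes of the muscle acetylcholine receptor that passed were higher, the fetal gamma subunit among them. Over the list of receptor and synapse genes 6 of 10 members rose and 2 fell, with a median of 1.39. Under median-of-ratios scaling 4 rose and 3 fell, with a median of 1.04. Chrnd, the delta subunit, was 0, 0.761 and 0 FPKM with no suffix and 33.3, 22.9 and 37.4 in 3dai (log2 difference 4.71 ± 0.34, adjusted p = 8.38e-06). Chrng, the gamma subunit that the fetal receptor carries, is listed at 0, 0 and 0 FPKM with no suffix and 11.8, 12.0 and 20.2 in 3dai (adjusted p = 1.67e-05). Chrnb1, the beta subunit, was 80.9, 79.4 and 77.0 FPKM with no suffix and 55.1, 54.5 and 49.4 in 3dai and fell (log2 difference -0.57 ± 0.15, adjusted p = 0.0101). Musk, the kinase that clusters the receptor, was 83.3, 76.9 and 98.2 FPKM with no suffix and 14.3, 10.4 and 12.1 in 3dai and fell (log2 difference -2.72 ± 0.19, adjusted p = 6.94e-06). The delta and gamma subunit genes thus rose while those of the beta subunit and of the clustering kinase fell.

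**Figure D4:**
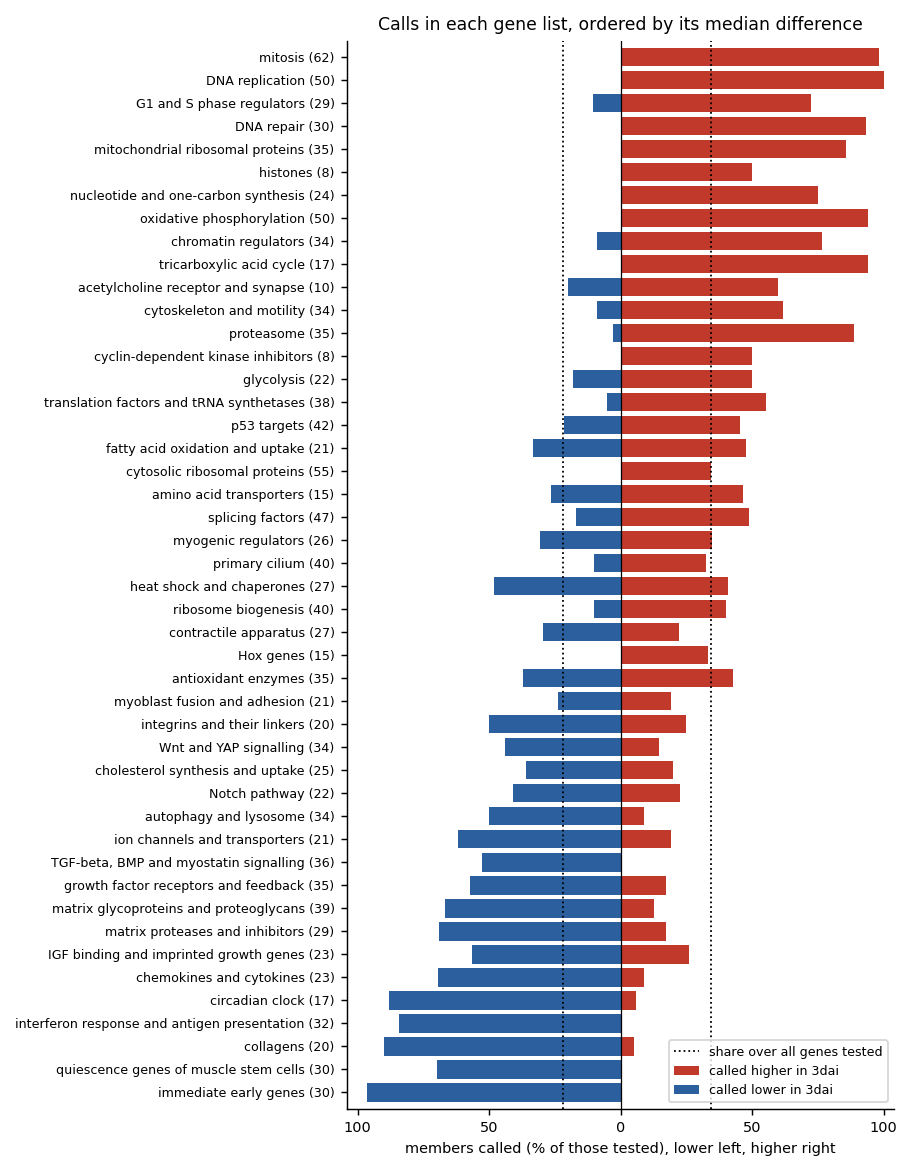
Share of the tested members of each of 46 gene lists called higher (red, to the right) or lower (blue, to the left) in p53WT_3dai, ordered by median difference, with the number tested in brackets and dotted lines at the shares over all genes (34.5% and 21.9%). All 50 DNA replication genes are called higher and 29 of 30 immediate early genes lower, while cytosolic ribosomal proteins lie on the line for higher.

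The genes of mitochondria and of biosynthesis were largely higher in 3dai. Of 50 subunits of oxidative phosphorylation 47 rose and 0 fell (median 1.69), of 17 genes of the tricarboxylic acid cycle 16 rose and 0 fell (1.51), and of 35 mitochondrial ribosomal proteins 30 rose and 0 fell (2.09). Under median-of-ratios scaling these counts were 41, 13 and 26. Sdhd, a membrane subunit of complex II, was 37.4, 38.2 and 27.4 FPKM with no suffix and 243, 234 and 303 in 3dai (log2 difference 2.89 ± 0.19, adjusted p = 5.01e-06). Atp5g1, of the ATP synthase ring, was 12.0, 28.1 and 17.2 FPKM with no suffix and 126, 101 and 149.7 in 3dai (log2 difference 2.71 ± 0.29, adjusted p = 7.04e-05). Cs, citrate synthase, was 40.9, 36.1 and 38.5 FPKM with no suffix and 214, 201 and 163 in 3dai (log2 difference 2.29 ± 0.17, adjusted p = 8.04e-06). Mrpl18, of the large mitochondrial ribosomal subunit, was 4.03, 8.86 and 5.91 FPKM with no suffix and 107, 90.2 and 95.9 in 3dai (log2 difference 3.81 ± 0.26, adjusted p = 5.50e-06). No 3dai library of these 4 genes overlapped one with no suffix. The muscle-specific subunit gene Cox8b is listed at 0 in all 6 libraries and Cox6a2 at 0 in all 3dai libraries.

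Cytosolic ribosomal protein genes, in contrast, rose in a share that equals the background. Of 55 members 19 rose (34.5% of them, against 34.5% of all genes), with a median of 0.50. Falls were found in 0 members, against 21.9% of all genes. Under median-of-ratios scaling 5 rose, where 25.3% of all genes did, and the median was 0.11. Under quantile normalization 20 rose, where 28% of all genes did, and the median was 0.31. The count also depended on single libraries, being 12 without p53WT replicate 3, 11 without p53WT_3dai replicate 1 or 2 and 8 without p53WT_3dai replicate 3. Rps2 was 757, 827 and 504 FPKM with no suffix and 1703, 1583 and 2233 in 3dai (log2 difference 1.42 ± 0.25, adjusted p = 0.00121). Rps20 was 1164, 1017 and 672 FPKM with no suffix and 1774, 1807 and 2946 in 3dai (log2 difference 1.19 ± 0.29, adjusted p = 0.00694).

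Ribosome biogenesis was mixed, with 16 of 40 genes higher and 4 lower (9 and 9 under median-of-ratios scaling, with a median of 0.28 becoming -0.10). Npm1, the nucleolar chaperone nucleophosmin, was 571, 828 and 504 FPKM with no suffix and 2854, 2463 and 3115 in 3dai (log2 difference 2.17 ± 0.24, adjusted p = 8.27e-05). Nop58, a core protein of box C/D small nucleolar particles, was 602, 679.9 and 562 FPKM with no suffix and 285, 310.1 and 256 in 3dai and fell (log2 difference -1.11 ± 0.17, adjusted p = 5.27e-04). Fbl, fibrillarin, the methylase of the same particles, was 94.9, 139.5 and 108 FPKM with no suffix and 132, 121 and 155 in 3dai and did not pass (log2 difference 0.26 ± 0.19, adjusted p = 0.266). The list's 4 falls became 1 or 2 on leaving out p53WT replicate 2 or 3 or any 3dai replicate. Of 38 translation factors and tRNA synthetases 21 rose and 2 fell (median 0.67). Vars, the valine synthetase gene, was 12.3, 10.5 and 11.9 FPKM with no suffix and 105, 111 and 99.1 in 3dai (log2 difference 3.08 ± 0.17, adjusted p = 1.94e-06). The initiation factor gene Eif5 was 219, 258 and 252 FPKM with no suffix and 154, 136 and 165 in 3dai and fell (log2 difference -0.68 ± 0.16, adjusted p = 0.00593).

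Synthesis of nucleotides and one-carbon units rose in 18 of 24 members, with 0 lower and a median of 1.74. Phgdh, the first enzyme of serine synthesis, was 4.52, 4.36 and 4.07 FPKM with no suffix and 178, 180.4 and 219 in 3dai (log2 difference 5.18 ± 0.17, adjusted p = 3.47e-07). Psph, its last enzyme, was 2.22, 4.37 and 0.695 FPKM with no suffix and 50.9, 40.0 and 63.2 in 3dai (log2 difference 4.06 ± 0.40, adjusted p = 4.57e-05). Shmt2, which passes the serine carbon to folate in mitochondria, was 15.2, 21.4 and 12.7 FPKM with no suffix and 171, 213 and 193 in 3dai (log2 difference 3.49 ± 0.21, adjusted p = 3.29e-06). Mthfd2, the next mitochondrial enzyme, was 62.4, 87.3 and 75.6 FPKM with no suffix and 175, 196 and 197 in 3dai (log2 difference 1.33 ± 0.17, adjusted p = 2.09e-04). Phgdh and Psph had the largest rises of the list.

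Glycolysis genes moved both ways. Of 22 members 11 rose and 4 fell (median 0.84). Pgk1, phosphoglycerate kinase, was 30.6, 46.8 and 24.8 FPKM with no suffix and 273, 234 and 296 in 3dai (log2 difference 2.98 ± 0.23, adjusted p = 1.21e-05). Pkm, pyruvate kinase, was 192, 186 and 211 FPKM with no suffix and 996, 1041 and 1103 in 3dai (log2 difference 2.41 ± 0.16, adjusted p = 5.10e-06). Ldha, lactate dehydrogenase A, was 265, 274 and 171 FPKM with no suffix and 869, 797 and 986 in 3dai (log2 difference 1.92 ± 0.22, adjusted p = 1.00e-04). The falls were in Hk2, the hexokinase of insulin-sensitive tissue, at 56.8, 70.9 and 93.1 FPKM with no suffix and 25.0, 20.5 and 13.7 in 3dai (log2 difference -1.86 ± 0.26, adjusted p = 3.41e-04), and in 3 transporters. Slc2a4, the insulin-responsive glucose transporter, was 4.14, 4.12 and 1.29 FPKM with no suffix and 0, 0.0940 and 0 in 3dai (log2 difference -1.93 ± 0.40, adjusted p = 0.00301). Slc16a3, which exports lactate, was 50.9, 26.0 and 27.8 FPKM with no suffix and 6.74, 6.96 and 10.1 in 3dai (log2 difference -1.96 ± 0.30, adjusted p = 5.08e-04).

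Genes of fatty acid handling also moved both ways, 10 of 21 higher and 7 lower with a median of 0.50. Cpt2, of the carnitine shuttle into mitochondria, was 4.01, 0.653 and 1.76 FPKM with no suffix and 12.0, 14.1 and 13.8 in 3dai (log2 difference 2.33 ± 0.40, adjusted p = 0.00112). Acaa2, the last enzyme of mitochondrial beta oxidation, was 17.8, 12.1 and 8.22 FPKM with no suffix and 41.9, 35.7 and 46.3 in 3dai (log2 difference 1.68 ± 0.27, adjusted p = 7.58e-04). Lpl, lipoprotein lipase, was 264, 181 and 242 FPKM with no suffix and 32.3, 35.0 and 21.0 in 3dai (log2 difference -2.93 ± 0.23, adjusted p = 1.24e-05). Fabp4, the adipocyte and endothelial fatty acid carrier, is listed at 26.5, 55.9 and 11.3 FPKM with no suffix and 0, 0 and 0 in 3dai (adjusted p = 6.70e-05). Cholesterol synthesis and uptake had 5 of 25 members higher and 9 lower, with a median of -0.50. The synthesis genes Hmgcs1 (64.2, 40.6 and 51.4 FPKM with no suffix and 48.8, 46.3 and 47.6 in 3dai) and Sqle (38.4, 45.3 and 40.9 FPKM with no suffix and 44.8, 58.6 and 45.3 in 3dai) did not pass.

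Protein turnover also divided. Of 35 proteasome genes 31 rose and 1 fell (median 1.34), and Psmd13, of the regulatory lid, was 32.6, 47.8 and 22.2 FPKM with no suffix and 156, 145 and 162 in 3dai (log2 difference 2.20 ± 0.25, adjusted p = 1.04e-04). The gene that fell, Psmb8, belongs to the immunoproteasome and is listed at 9.25, 12.0 and 4.54 FPKM with no suffix and 0, 0 and 0 in 3dai (adjusted p = 1.37e-04). Of 34 autophagy and lysosome genes 3 rose and 17 fell (median -0.67). Map1lc3a, a coat protein of autophagosomes, was 197, 265 and 171 FPKM with no suffix and 8.92, 9.69 and 22.0 in 3dai (log2 difference -3.95 ± 0.32, adjusted p = 1.49e-05). Its relative Gabarapl1 was 322, 315 and 252 FPKM with no suffix and 37.6, 33.5 and 24.5 in 3dai (log2 difference -3.19 ± 0.20, adjusted p = 3.99e-06).

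Most chromatin and cytoskeleton genes were higher in 3dai. Of 34 chromatin regulators 26 rose and 3 fell (median 1.68). Ezh2, the histone H3 methylase of Polycomb complex 2, was 7.05, 10.4 and 6.12 FPKM with no suffix and 71.8, 74.9 and 72.1 in 3dai (log2 difference 3.09 ± 0.22, adjusted p = 6.80e-06). Hmgb2, a DNA-bending protein, was 9.49, 11.0 and 5.60 FPKM with no suffix and 89.9, 96.4 and 112 in 3dai (log2 difference 3.41 ± 0.25, adjusted p = 7.79e-06). Hmga2, an architectural protein of embryonic and growing cells, is listed at 0, 0 and 0 FPKM with no suffix and 29.4, 25.2 and 30.3 in 3dai (adjusted p = 2.39e-06). The deacetylase gene Hdac4, known in muscle as a repressor of Mef2 factors, was 25.0, 24.4 and 38.6 FPKM with no suffix and 3.60, 3.44 and 2.02 in 3dai and fell (log2 difference -2.91 ± 0.29, adjusted p = 4.78e-05). Of 34 cytoskeleton and motility genes 21 rose and 3 fell (median 1.37). Tubb5, a beta tubulin, was 31.9, 37.1 and 22.8 FPKM with no suffix and 841, 802 and 854 in 3dai (log2 difference 4.75 ± 0.20, adjusted p = 6.08e-07). Stmn1, which regulates microtubules, was 3.22, 5.26 and 1.66 FPKM with no suffix and 70.8, 93.1 and 104 in 3dai (log2 difference 4.43 ± 0.32, adjusted p = 7.64e-06). Flnc, the muscle filamin, was 514, 523 and 809 FPKM with no suffix and 85.9, 99.2 and 58.0 in 3dai and fell (log2 difference -2.91 ± 0.25, adjusted p = 2.13e-05).

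Splicing factors rose in 23 of 47 cases and fell in 8, with a median of 0.43 (0.04 under median-of-ratios scaling). Snrpe, a core protein of the spliceosome, was 82.9, 98.1 and 77.2 FPKM with no suffix and 589.5, 426 and 694 in 3dai (log2 difference 2.69 ± 0.21, adjusted p = 1.16e-05). Srsf5, a regulator of exon choice, was 584, 477 and 433 FPKM with no suffix and 121, 109 and 101 in 3dai and fell (log2 difference -2.16 ± 0.17, adjusted p = 1.40e-05). Mbnl3, the muscleblind protein of dividing myoblasts, was 0, 0 and 0.180 FPKM with no suffix and 8.27, 9.23 and 6.03 in 3dai (log2 difference 3.05 ± 0.32, adjusted p = 6.20e-05).

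Immediate early genes were lower in 3dai almost without exception. Of 30 members 29 fell and 0 rose, with a median of -3.12. Fos was 1892, 604 and 1118 FPKM with no suffix and 27.2, 28.5 and 33.6 in 3dai (log2 difference -5.15 ± 0.35, adjusted p = 6.04e-06), Jun was 749, 208 and 438 FPKM with no suffix and 80.9, 85.4 and 83.4 in 3dai (log2 difference -2.28 ± 0.38, adjusted p = 9.19e-04) and Egr1 was 1750, 602 and 1399 FPKM with no suffix and 13.2, 11.6 and 8.71 in 3dai (log2 difference -6.57 ± 0.36, adjusted p = 2.01e-06). Every 3dai library lay below every library with no suffix, and within the no suffix group replicate 1 was highest and replicate 2 lowest for all 3 genes. The stress factor gene Atf3 was 956, 339.7 and 433 FPKM with no suffix and 21.1, 22.4 and 20.3 in 3dai (log2 difference -4.55 ± 0.33, adjusted p = 8.23e-06). Btg2, an antiproliferative early gene and a p53 target, was 761, 166 and 344 FPKM with no suffix and 2.35, 3.54 and 1.92 in 3dai (log2 difference -6.64 ± 0.47, adjusted p = 6.82e-06). Ctgf and Cyr61, targets of YAP and early genes, were 862, 1306 and 1003 FPKM and 702, 452 and 582 FPKM with no suffix, and 21.4, 16.8 and 4.94 and 58.6, 69.9 and 92.5 FPKM in 3dai (log2 differences -6.29 ± 0.43 and -2.96 ± 0.23).

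Heat shock genes and chaperones moved both ways. Of 27 members 11 rose and 13 fell, with a median of 0.31 that became -0.06 under median-of-ratios scaling. The stress-induced Hspa1a was 682, 232 and 933 FPKM with no suffix and 8.03, 10.2 and 8.70 in 3dai (log2 difference -5.74 ± 0.43, adjusted p = 9.96e-06). Hspa1b was 962, 279.6 and 1229 FPKM with no suffix and 19.8, 14.8 and 23.2 in 3dai (log2 difference -5.12 ± 0.48, adjusted p = 3.24e-05). These 2 genes are near-identical copies, and reads could have been split between them. All 8 subunits of the CCT chaperonin, which folds actin and tubulin, rose, against 3 of the other 19 members, of which 13 fell; this split by name was made after the values were seen. Cct2 was 228, 243 and 215 FPKM with no suffix and 618, 583 and 634 in 3dai (log2 difference 1.42 ± 0.15, adjusted p = 7.93e-05) and Tcp1 was 135, 190 and 152 FPKM with no suffix and 481, 455 and 455 in 3dai (log2 difference 1.55 ± 0.17, adjusted p = 9.27e-05).

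Genes of the circadian clock were lower in 15 of 17 cases and higher in 1, with a median of -1.91. Per1 was 55.3, 30.4 and 45.4 FPKM with no suffix and 2.13, 3.63 and 5.67 in 3dai (log2 difference -3.24 ± 0.33, adjusted p = 5.68e-05). Nr1d1, coding the repressor REV-ERB alpha, was 89.3, 77.5 and 88.9 FPKM with no suffix and 12.9, 21.2 and 20.6 in 3dai (log2 difference -2.19 ± 0.22, adjusted p = 4.57e-05). Npas2, an activator, was 10.9, 12.4 and 16.4 FPKM with no suffix and 0.891, 0.425 and 0 in 3dai (log2 difference -3.34 ± 0.35, adjusted p = 6.16e-05). Falls were thus found in the activator arm (Npas2) and in the repressor arm (Per1 and Nr1d1). Whether the groups differed in the time of day of collection was not tested. Per2 was 8.68, 4.11 and 10.8 FPKM with no suffix and 1.96, 3.27 and 4.25 in 3dai (log2 difference -1.04 ± 0.39, adjusted p = 0.0462); it was not called without p53WT replicate 1 (adjusted p = 0.132) or 3 (0.166), or without p53WT_3dai replicate 1 (0.143) or 2 (0.0892). The gene that rose, Ciart, was 0, 0 and 5.19 FPKM with no suffix and 8.60, 4.31 and 3.94 in 3dai (log2 difference 1.78 ± 0.68, adjusted p = 0.04997) and was not called on leaving out p53WT replicate 1 or 2 or any 3dai replicate.

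Antioxidant genes had 15 of 35 members higher and 13 lower, and their median of 0.11 became -0.27 under median-of-ratios scaling. Gpx1, the intracellular glutathione peroxidase, was 22.0, 58.3 and 37.4 FPKM with no suffix and 227, 213 and 329 in 3dai (log2 difference 2.76 ± 0.33, adjusted p = 1.23e-04). Gsr, glutathione reductase, was 6.08, 9.49 and 8.02 FPKM with no suffix and 59.0, 62.8 and 65.7 in 3dai (log2 difference 2.86 ± 0.21, adjusted p = 7.85e-06). Sepp1, which codes the secreted selenium carrier, was 179.8, 128 and 151 FPKM with no suffix and 11.8, 8.01 and 0.295 in 3dai (log2 difference -4.84 ± 0.71, adjusted p = 4.26e-04), with 3dai replicate 3 far below the others.

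The extracellular matrix was lower in 3dai. Of 20 collagen genes 18 fell and 1 rose (median -2.14), of 39 matrix glycoproteins and proteoglycans 26 fell and 5 rose (-1.59), and of 29 matrix proteases and inhibitors 20 fell and 5 rose (-1.69). Col1a1 was 63.9, 66.9 and 149.6 FPKM with no suffix and 4.83, 5.45 and 5.89 in 3dai (log2 difference -3.77 ± 0.32, adjusted p = 1.77e-05). Col4a1, of basement membrane, was 128, 129 and 155 FPKM with no suffix and 3.80, 7.97 and 4.31 in 3dai (log2 difference -4.50 ± 0.26, adjusted p = 2.45e-06). Col15a1, a basement membrane collagen that also marks fibro-adipogenic progenitors, was 46.4, 32.1 and 40.4 FPKM with no suffix and 0.279, 1.23 and 0.534 in 3dai (log2 difference -4.62 ± 0.30, adjusted p = 5.01e-06). Fn1, fibronectin, was 49.5, 45.9 and 115 FPKM with no suffix and 12.0, 11.3 and 5.54 in 3dai (log2 difference -2.68 ± 0.39, adjusted p = 4.00e-04). In each case every 3dai library was below every library with no suffix. The same libraries differed in fibro-adipogenic progenitor markers (1183 to 1373 against 64.1 to 85.2 FPKM) and tenocyte markers (251 to 468 against 70.2 to 108 FPKM without Egr1), both of which include matrix genes, and their part in these falls was not tested.

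Some matrix genes did not follow. Tnc, tenascin C, was 20.6, 29.1 and 18.8 FPKM with no suffix and 31.5, 47.3 and 21.7 in 3dai and did not pass (log2 difference 0.49 ± 0.29, adjusted p = 0.183). Vcan, versican, was 4.46, 5.44 and 5.90 FPKM with no suffix and 26.4, 22.5 and 16.9 in 3dai (log2 difference 1.86 ± 0.25, adjusted p = 2.80e-04). Gpc1, glypican 1, was 43.1, 68.5 and 62.9 FPKM with no suffix and 221, 241 and 200.5 in 3dai (log2 difference 1.93 ± 0.20, adjusted p = 6.16e-05). Timp1, an inhibitor of metalloproteases, was 63.7, 103 and 84.2 FPKM with no suffix and 136, 185 and 277 in 3dai (log2 difference 1.21 ± 0.28, adjusted p = 0.00476), whereas Timp4 is listed at 1.26, 6.50 and 3.14 FPKM with no suffix and 0, 0 and 0 in 3dai (adjusted p = 0.00413). The 5 rises among glycoproteins became 2 or 3 without p53WT replicate 1 or 2 or p53WT_3dai replicate 1 or 2, and so did the 5 among proteases. Col8a1, the collagen that rose, was 4.35, 6.86 and 8.61 FPKM with no suffix and 16.2, 14.9 and 11.6 in 3dai (log2 difference 1.03 ± 0.29, adjusted p = 0.0137); it was not called without p53WT_3dai replicate 1 (adjusted p = 0.0534) or under median-of-ratios scaling (0.68). Scx, the transcription factor of tendon cells, was 9.01, 2.67 and 3.94 FPKM with no suffix and 26.1, 38.0 and 70.4 in 3dai and rose (log2 difference 2.90 ± 0.44, adjusted p = 5.23e-04), while Tnmd, a product of mature tendon cells, fell to 0, 0.752 and 0 from 24.1, 48.9 and 41.5 FPKM (log2 difference -4.96 ± 0.37, adjusted p = 9.15e-06).

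Among integrins, the receptors for matrix, and the proteins that link them to the cytoskeleton, 5 of 20 members rose and 10 fell (median -0.46). Of the 12 integrin subunits alone 2 rose and 8 fell. Itga3, a laminin receptor subunit, was 1.61, 3.20 and 2.31 FPKM with no suffix and 35.6, 32.6 and 34.9 in 3dai (log2 difference 3.42 ± 0.26, adjusted p = 9.57e-06). Itga8 was 11.9, 22.3 and 13.7 FPKM with no suffix and 0.421, 0.549 and 0 in 3dai (log2 difference -3.66 ± 0.35, adjusted p = 3.91e-05). Together with Itga7, given above, a pair of laminin receptor subunits was higher. Tln2, a talin that links integrins to actin, was 40.1, 31.9 and 44.0 FPKM with no suffix and 6.03, 5.78 and 4.37 in 3dai (log2 difference -2.63 ± 0.23, adjusted p = 2.10e-05).

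Growth factor receptors and the feedback genes downstream of them were mostly lower, 20 of 35 against 6 higher, with a median of -1.51. Fgfr1 was 391, 488 and 528 FPKM with no suffix and 36.2, 39.3 and 38.2 in 3dai (log2 difference -3.58 ± 0.17, adjusted p = 1.11e-06). Fgfr4, which is typical of the myogenic lineage, was 144, 58.1 and 106 FPKM with no suffix and 21.1, 15.8 and 17.7 in 3dai (log2 difference -2.35 ± 0.31, adjusted p = 2.15e-04). Met, the receptor of hepatocyte growth factor, which wakes resting satellite cells, was 47.0, 45.4 and 65.9 FPKM with no suffix and 106, 119 and 77.5 in 3dai and rose (log2 difference 0.92 ± 0.22, adjusted p = 0.00621), but it was not called under median-of-ratios scaling (0.53). Ngfr, the neurotrophin receptor p75, was 2.05, 4.53 and 2.58 FPKM with no suffix and 33.6, 48.8 and 29.1 in 3dai (log2 difference 3.25 ± 0.31, adjusted p = 3.55e-05); the other 7 Schwann cell markers fell. Osmr, the receptor of oncostatin M, a cytokine that keeps muscle stem cells at rest in mice, was 98.3, 87.3 and 137 FPKM with no suffix and 1.65, 1.93 and 4.40 in 3dai (log2 difference -4.94 ± 0.31, adjusted p = 3.99e-06).

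The insulin-like growth factor system was reshuffled. Of 23 binding proteins and imprinted growth genes 6 rose and 13 fell (median -1.69). Igfbp2 was 0.550, 0.818 and 0 FPKM with no suffix and 47.9, 27.9 and 61.3 in 3dai (log2 difference 4.98 ± 0.37, adjusted p = 8.72e-06). Igfbp3 was 7.91, 3.95 and 2.85 FPKM with no suffix and 42.7, 52.6 and 57.1 in 3dai (log2 difference 3.21 ± 0.32, adjusted p = 4.39e-05). Igfbp4 went the other way, at 93.7, 113 and 82.6 FPKM with no suffix and 6.62, 7.63 and 5.90 in 3dai (log2 difference -3.65 ± 0.20, adjusted p = 1.94e-06). Igf2 was 34.0, 45.5 and 39.2 FPKM with no suffix and 7.39, 4.60 and 7.03 in 3dai (log2 difference -2.48 ± 0.24, adjusted p = 3.92e-05). H19, the untranslated transcript imprinted opposite to it at the same locus, was 19.8, 6.67 and 10.2 FPKM with no suffix and 60.4, 48.6 and 93.9 in 3dai (log2 difference 2.44 ± 0.37, adjusted p = 5.42e-04). Meg3 and Rian, maternal transcripts of the Dlk1 locus, were 81.9, 111 and 107 and 109, 116 and 100.3 FPKM with no suffix and 1.53, 0.212 and 0.938 and 1.21, 1.81 and 0.281 FPKM in 3dai (log2 differences -5.79 ± 0.30 and -5.78 ± 0.30). H19 and Igf2 thus moved in opposite directions with no overlap.

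In TGF-beta, BMP and myostatin signalling 19 of 36 members fell and 0 rose, with a median of -1.16. Bmp6 was 46.4, 52.9 and 50.3 FPKM with no suffix and 0.663, 1.58 and 0 in 3dai (log2 difference -4.97 ± 0.35, adjusted p = 7.13e-06). Mstn, myostatin itself, is listed at 0 in all 6 libraries. Of Wnt and YAP signalling 15 of 34 members fell and 5 rose (median -0.49). Of 3 Tead genes, which code partners of YAP on DNA, 2 rose: Tead2 was 6.96, 1.26 and 3.91 FPKM with no suffix and 45.6, 47.8 and 70.0 in 3dai (log2 difference 3.61 ± 0.42, adjusted p = 1.15e-04) and Tead4 was 0, 0.351 and 0 FPKM with no suffix and 14.5, 11.5 and 9.63 in 3dai (log2 difference 3.52 ± 0.32, adjusted p = 2.86e-05), while Tead1 was not called. The YAP targets Ctgf and Cyr61, of the same list, fell as given above, and its targets Ankrd1 and Amotl2 were not called.

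Secreted and interferon-induced genes were lower. Of 23 chemokines and cytokines 16 fell and 2 rose (median -1.84), and of 32 genes of the interferon response and antigen presentation 27 fell and 0 rose (median -2.06). Ccl11, eotaxin, was 154, 206 and 92.3 FPKM with no suffix and 1.95, 1.01 and 3.21 in 3dai (log2 difference -5.62 ± 0.35, adjusted p = 3.99e-06). Il6 was 138, 317 and 116 FPKM with no suffix and 3.57, 5.01 and 15.7 in 3dai (log2 difference -4.49 ± 0.51, adjusted p = 9.44e-05). Ccl2, a monocyte attractant, was 55.5, 54.5 and 33.5 FPKM with no suffix and 36.4, 56.3 and 69.8 in 3dai and did not pass (log2 difference 0.16 ± 0.28, adjusted p = 0.647). The rises were in Il34 (0, 4.47 and 4.52 FPKM with no suffix and 16.3, 22.5 and 13.7 in 3dai; log2 difference 2.54 ± 0.61, adjusted p = 0.00651) and Csf1 (72.2, 86.6 and 101 FPKM with no suffix and 169, 209 and 124 in 3dai; log2 difference 0.92 ± 0.22, adjusted p = 0.00662), both ligands of the macrophage receptor Csf1r; Csf1 was not called under median-of-ratios scaling (0.54). Isg15, a ubiquitin-like interferon product, is listed at 27.0, 46.8 and 21.5 FPKM with no suffix and 0, 0 and 0 in 3dai (adjusted p = 6.39e-06). Gbp2, a guanylate-binding protein, was 83.3, 109.7 and 71.8 FPKM with no suffix and 3.92, 4.56 and 0 in 3dai (log2 difference -4.87 ± 0.58, adjusted p = 1.23e-04). The sums of macrophage markers (8.78 to 27.4 against 2.92 to 5.70 FPKM) and endothelial markers (26.2 to 40.3 against 0.386 to 2.79 FPKM) were lower in 3dai as well. Only 3 macrophage and 5 endothelial markers could be tested singly. The part of these cells in the falls was not tested.

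Trp53, which codes p53, was 40.0, 53.9 and 48.1 FPKM with no suffix and 134, 135 and 161 in 3dai and rose (log2 difference 1.58 ± 0.17, adjusted p = 8.22e-05). Of 42 known p53 targets 19 rose and 9 fell (median 0.63), and 13 rose and 13 fell under median-of-ratios scaling (median 0.25). Phlda3, an inhibitor of Akt, was 10.5, 12.5 and 15.8 FPKM with no suffix and 76.9, 69.8 and 87.5 in 3dai (log2 difference 2.51 ± 0.20, adjusted p = 1.36e-05). Mdm2, the ubiquitin ligase that degrades p53, was 33.3, 32.7 and 50.5 FPKM with no suffix and 55.5, 60.6 and 63.4 in 3dai (log2 difference 0.64 ± 0.20, adjusted p = 0.0247), but it was not called under median-of-ratios scaling (0.25) or without p53WT replicate 1 or 2 or p53WT_3dai replicate 2 or 3 (adjusted p = 0.0673 to 0.0779). The largest rises in the list, Gtse1 (listed at 0, 0 and 0 FPKM with no suffix and 27.4, 29.9 and 26.1 in 3dai; adjusted p = 2.38e-06) and Ckap2 (1.27, 2.38 and 1.82 FPKM with no suffix and 36.0, 35.3 and 46.9 in 3dai; log2 difference 3.85 ± 0.26, adjusted p = 5.78e-06), are genes that are also expressed with the late cell cycle. Ephx1, epoxide hydrolase, was 92.9, 64.4 and 76.5 FPKM with no suffix and 2.87, 6.13 and 4.63 in 3dai and fell (log2 difference -3.86 ± 0.27, adjusted p = 6.39e-06).

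The other genes among the 10 largest changes in each direction belonged to several kinds. Kcnn4, a calcium-gated potassium channel, was 0, 0 and 0.0189 FPKM with no suffix and 75.4, 63.8 and 97.8 in 3dai (log2 difference 6.29 ± 0.26, adjusted p = 6.08e-07). Downward, Nppc, which codes C-type natriuretic peptide, was 329, 126 and 219.8 FPKM with no suffix and 1.06, 0 and 0 in 3dai (log2 difference -7.37 ± 0.40, adjusted p = 1.96e-06). Rarres2, which codes chemerin, was 169, 267 and 109 FPKM with no suffix and 1.45, 0 and 0 in 3dai (log2 difference -6.99 ± 0.42, adjusted p = 3.45e-06). Dpt, dermatopontin, a progenitor marker, was 336, 369 and 248 FPKM with no suffix and 5.97, 1.50 and 0 in 3dai (log2 difference -6.92 ± 0.57, adjusted p = 1.63e-05). Plekhb1 is listed at 101, 122 and 108 FPKM with no suffix and 0, 0 and 0 in 3dai (adjusted p = 3.47e-07). Slc10a6, a transporter of steroid sulphates, was 290, 67.3 and 105 FPKM with no suffix and 0, 0.568 and 0 in 3dai (log2 difference -6.79 ± 0.48, adjusted p = 7.39e-06). Dpt is a member of a marker list of other cells, and the part of those cells in its fall was not tested.

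The same comparison in p53 knockout cells, which shares no library with the one above, gave nearly all genes called above the same sign. Of the 6722 genes called in p53WT, 6603 (98.2%) had the same sign between p53KO_3dai and p53KO, and 5271 were called there too. With the other sign 2 were called there, Gdf15 and Tmco6, named after their values were seen. Trp53 was 6.34, 12.2 and 7.17 FPKM in p53KO and 41.3, 45.7 and 34.9 FPKM in p53KO_3dai, below every p53WT library of the same suffix. In p53KO 3664 genes rose (30.7%) and 2624 fell (22%). The difference between the effects was called for 0 of 11923 genes (0% of those tested; limma's moderated test of the interaction), with 670 genes at an unadjusted p under 0.05 and a lowest adjusted p of 0.368. Without p53KO_3dai replicate 1 that count was 121, and p53KO_3dai replicates 2 and 3 differ from replicate 1 in the share of FPKM held by their top 10 genes (16.9% and 17.9% against 8.87%).

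**Figure D5:**
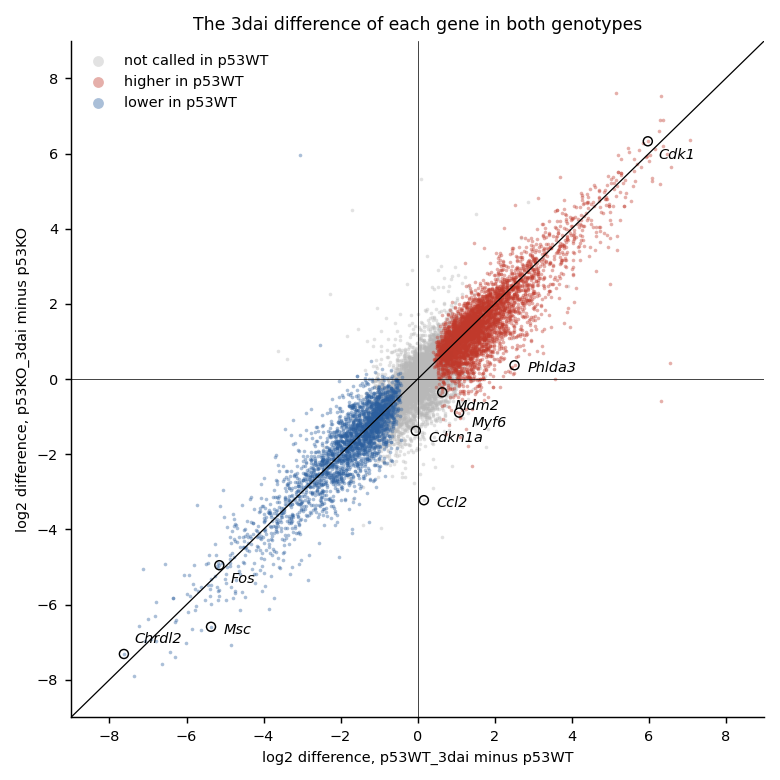
Log2 difference between 3dai and no suffix of each gene tested in p53WT (horizontal axis) and in p53KO (vertical axis), red and blue for genes called higher and lower in p53WT, with a line at equal differences. Cdk1, Fos and Chrdl2 lie near the line, and Phlda3, Cdkn1a, Ccl2, Myf6 and Mdm2 lie below it.

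Genes named here that lie far from that line did not pass the test of the difference. Cdkn1a was 224, 267 and 221 FPKM in p53KO and 179, 65.7 and 62.6 FPKM in p53KO_3dai against 286, 359 and 283 and 284, 298 and 310 FPKM in p53WT and p53WT_3dai, an effect difference of 1.33, adjusted p = 0.846. Phlda3 was 15.5, 11.5 and 7.17 FPKM in p53KO and 18.9, 12.1 and 12.9 FPKM in p53KO_3dai, an effect difference of 2.15, adjusted p = 0.368. Gdf15, a secreted stress cytokine, was 8.88, 10.2 and 17.8 FPKM in p53KO and 2.90, 0.127 and 2.82 FPKM in p53KO_3dai against 4.25, 8.15 and 2.67 and 7.82, 23.4 and 14.1 FPKM in p53WT and p53WT_3dai, an effect difference of 3.72, adjusted p = 0.368. In 3dai every p53KO library was below every p53WT library for Cdkn1a and Phlda3.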

How the data were processed

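RNA of sorted muscle stem cells had been sequenced from total RNA with a directional kit (NEBNext Ultra II), per the labels. The submitters' processing notes name STAR, Cufflinks, Cuffdiff and the build mm10, with no versions, and the authors deposited FPKM for 24341 genes in 1 file per library. Reads were not analysed here, and depth is unknown, so no counting interval is given.

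From these files log2(FPKM + 1) was taken with a pseudocount of 1, 11923 genes with at least 1 FPKM in 2 of the 6 libraries were kept, and limma 3.58.1 (R 4.3.3) was fitted with a variance trend, with Benjamini-Hochberg adjustment and 0.05 as the limit. The fit was also run on simulated data in which far fewer genes changed than were called here, equally up and down. That run cannot show how the fit behaves with changes this widespread. Genes named are Trp53, the sort genes, anchor genes of each list, the 10 largest called changes each way (mean of at least 5 FPKM, no overlap) and 2 each way per list, leaving out small RNA names and unnamed loci; not all that the rule names are described. Some genes are not reported here. The comparison, its 58 lists and the genes were chosen with earlier results of these data known.

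The alternatives tried changed 1 setting each: the pseudocount (0.1), the filter (none, or a mean of at least 5 FPKM), the scaling (quantile or median of ratios), the libraries in the fit (all 16, or 1 left out), array weights, the replicate number as a block, small RNA and mitochondrial names removed, and values whose status was not OK set to missing.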

Additional observations from a re-analysis of the deposited data

Results flagged for a closer look

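For 2 of the genes named above the libraries lay in opposite order in the genotypes, with every 3dai library on one side of every no suffix library in p53WT and on the other side in p53KO. Myf6, which codes the myogenic factor MRF4, is listed at 0, 0 and 0 FPKM with no suffix and 1.14, 1.04 and 1.14 in 3dai in p53WT, and was 0.595, 2.21 and 0.983 FPKM in p53KO and 0, 0.588 and 0 FPKM in p53KO_3dai. The effect in p53WT minus that in p53KO was 1.97, adjusted p = 0.581 by limma's test of the interaction. All its values lie near the limit of 1 FPKM used for testing. Mdm2 was 33.3, 32.7 and 50.5 FPKM with no suffix and 55.5, 60.6 and 63.4 in 3dai in p53WT and 37.0, 34.8 and 32.0 FPKM in p53KO and 30.1, 26.0 and 24.8 FPKM in p53KO_3dai, with a difference between the effects of 0.99, adjusted p = 0.846. Neither difference passed. In p53KO itself neither gene was called (adjusted p = 0.0623 for Myf6 and 0.120 for Mdm2 by limma), and the p53WT call of Mdm2 is lost under median-of-ratios scaling and without any 1 of 4 libraries.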

How the results depend on the processing

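The count of genes called, 6722 in the reported fit, was 6513 with a pseudocount of 0.1, 6433 with no filter, 5263 with a mean of at least 5 FPKM (8311 genes), 6488 with quantile normalization, 6404 with median-of-ratios scaling, 6749 with small RNA and mitochondrial names left out, 7053 with array weights, 6836 with all 16 libraries in the fit and 6708 with values of status not OK set to missing. Leaving out 1 library gave 5907 to 6413 calls, 3545 to 3920 higher and 2289 to 2493 lower; a group then has 2 libraries. With the replicate number as a block 6247 were called, 3818 higher and 2429 lower. Deviations from the group means correlated at -0.02, -0.08 and -0.18 in libraries of the same number, and at -0.06 to 0.15 in other pairs. Values this few cannot decide whether the numbers pair the samples.

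The count of genes with a difference between the p53WT and p53KO effects was 0 in the reported fit. It was 1 with a pseudocount of 0.1 and 121 without p53KO_3dai replicate 1, so leaving out 1 library gave 0 to 121; the cause was not tested. It was 0 with the replicate number as a block.

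Of the genes the rule names 231 were called, and 15 of them lost the call under some alternative: Aqp1, Cd14, Ciart, Ckm, Col8a1, Csf1, Mb, Mdm2, Met, Myog, Ncl, Npc2, Pax7, Per2 and Tsr1. None changed sign in the alternatives run. Limits are the confounding of suffix and muscle, 3 libraries a group, unknown depth, listed zeros that may not be absence, and markers of other cells that differ between the groups.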

Other observations

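Hox genes, which record position along the limb and trunk, were measured in both muscles. Of 40 genes of this list in the files 15 could be tested, 5 rose and 0 fell, 33.3% of the members against 34.5% of all genes, with a median of 0.24 (0.02 under median-of-ratios scaling). Hoxa9 was 1.52, 0.829 and 1.85 FPKM with no suffix and 13.3, 15.0 and 23.4 in 3dai (log2 difference 2.91 ± 0.33, adjusted p = 9.01e-05), and Hoxc11 was 5.84, 0 and 1.49 FPKM with no suffix and 14.9, 20.3 and 8.92 in 3dai (log2 difference 2.54 ± 0.63, adjusted p = 0.00755). Hoxa10 and Hoxa11 also rose (log2 differences 1.57 and 2.06; named after their values were seen). The muscles differ between the groups, and the suffix and the muscle cannot be told apart.

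Genes of the primary cilium, an antenna of resting cells, did not move together, 13 of 40 higher and 4 lower with a median of 0.32 (0.01 under median-of-ratios scaling). The hedgehog factors read through the cilium parted: Gli3 was 1.71, 1.07 and 1.82 FPKM with no suffix and 13.6, 10.0 and 6.95 in 3dai (log2 difference 2.11 ± 0.33, adjusted p = 6.52e-04) and Smo, the transducer, was 6.51, 8.17 and 8.32 FPKM with no suffix and 36.7, 30.9 and 26.9 in 3dai (log2 difference 1.90 ± 0.22, adjusted p = 1.03e-04), whereas Gli1, a target gene of the pathway, was 5.29, 7.59 and 5.13 FPKM with no suffix and 2.18, 0.651 and 0.635 in 3dai (log2 difference -1.76 ± 0.37, adjusted p = 0.00335) and Gli2 was 5.68, 2.13 and 4.70 FPKM with no suffix and 0.503, 0.800 and 0 in 3dai (log2 difference -1.82 ± 0.41, adjusted p = 0.00449).

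Of 21 ion channels and transporters 13 fell and 4 rose (median -0.96), and the 4 became 1 or 2 without p53WT replicate 1 or 3 or any 3dai replicate. The sodium pump subunit gene Atp1b1 was 1.55, 3.08 and 4.19 FPKM with no suffix and 73.5, 53.3 and 59.7 in 3dai (log2 difference 4.05 ± 0.29, adjusted p = 7.85e-06). Of 15 amino acid transporters 7 rose and 4 fell (2 and 5 under median-of-ratios scaling), with 3 or 4 rises left without p53WT replicate 3 or without p53WT_3dai replicate 1 or 2. The glutamine carrier gene Slc1a5 was 26.7, 42.0 and 37.0 FPKM with no suffix and 65.2, 83.5 and 65.4 in 3dai (log2 difference 1.01 ± 0.21, adjusted p = 0.00304), and Slc38a3 was 15.6, 14.3 and 10.8 FPKM with no suffix and 0, 0.267 and 0 in 3dai (log2 difference -3.74 ± 0.31, adjusted p = 1.65e-05).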
